A study of Mus musculus with 7 samples.

Results

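Replicating a genome needs a fixed set of proteins that mark origins, unwind DNA at forks, copy both strands and supply nucleotides. The transcripts of 54 mouse genes with these roles were examined in the extrahepatic bile duct (EHBD), the duct that carries bile from the liver to the intestine. The genes were chosen by name, for what their proteins do in origin licensing, the replicative helicase, DNA polymerases, the sliding clamp and its loader, nucleotide supply and chromatin assembly. All 54 names matched a row of the gene table, which held 56065 genes, and all 54 were among the 25209 genes tested, which had 10 or more counts over the 7 libraries combined.

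EHBDs were taken from C57BL/6 mice (C57BL/6J in the study's methods) 48 hours after surgery and whole tissue was used for bulk RNA-Seq. In bile duct ligation (BDL) the duct was tied off distally, near the duodenum, which blocks bile flow, and in sham mice the abdomen was opened without ligation. There were 3 sham libraries (replicate 1 female, replicates 2 and 3 male) and 4 BDL libraries (replicates 1 and 2 male, replicates 3 and 4 female). The labels name no genotype or drug treatment for either group, and the study's methods describe the mice as adult wild-type animals. The labels do not tie the libraries to animals, but the study's supplement counts this data set in mice, with group sizes that match the numbers of libraries, so each library was taken as 1 mouse.

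Library totals ran from 48882420 to 61291821 counts. RNA of neighbouring organs was present in amounts that differed between libraries. Acinar cells of the pancreas have 19 markers in the list used, and these took 13% to 49% of sham counts and 0.0025% to 15.8% of BDL counts, and the 12 hepatocyte markers took 0.0515% to 0.154% and 0.0082% to 3.71%. The 10 cholangiocyte markers were present throughout, at 0.293% to 0.702% of sham and 1.21% to 1.56% of BDL counts. Other cell types moved in both directions, in a test given below that called 11.8% of all genes higher and 11.0% lower in BDL. Of the 10 cholangiocyte markers 5 rose and 1, Sox9, fell by 0.84 on the log2 scale. Of 9 fibroblast markers 3 rose (Col1a1 by 2.55) and 4 fell (Gsn by 3.01), of 8 leukocyte markers 2 rose and 4 fell (log2 fold changes of -2.30 for Ptprc and of -4.98 and -5.30 for the lymphocyte genes Cd3e and Cd79a), and of 4 mesothelial markers 1 rose (Msln by 3.12) and 3 fell (log2 fold changes of -6.48 for Upk3b and -5.88 for Lrrn4). Of 5 smooth muscle markers 1 rose and 1 fell, and of 5 endothelial markers 1 fell. The part of these cell types in the results on replication genes was not tested. The 54 replication genes together took 0.0427% to 0.106% of sham and 0.241% to 0.337% of BDL counts, and the cycling-cell markers Mki67 and Top2a took 0.00028% to 0.0017% and 0.0307% to 0.035%. In such bulk samples, more replicating cells and more RNA per cell cannot be told apart. Levels are given as counts per 1000000 (CPM) after TMM scaling, which corrected the acinar-rich sham replicate 3 with a factor of 0.608, against 1.03 to 1.17 in the other libraries.

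Before a cell copies its DNA, the origin recognition complex, CDC6 and CDT1 load the ring-shaped MCM2-7 helicase onto origins, a step called licensing. At the onset of S phase the kinase CDC7-DBF4 and cyclin-dependent kinases let CDC45 and GINS join MCM2-7, and the assembled helicase opens the fork for the polymerases. Resting cells, such as most cholangiocytes of an uninjured duct, keep many of these genes low. E2F transcription factors, which are held back by RB-family proteins in resting cells, bind the promoters of many of them.

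Promoters were therefore searched for E2F letters (TTTCCCGC, TTTCGCGC, TTTGCCGC or TTTGGCGC, on either strand) in RefSeq windows of GRCm38.p6 that run from 250 bases before to 50 bases after an annotated start. Of the 54 genes, 45 had a window, and some had several, so that they held 54 windows. The letters were found in 16 of these 54 windows (29.6%), against 744 of 32851 windows (2.26%) of all genes. Neither figure was tested. The 16 windows belonged to 16 genes. Of the 45 genes with a window, 39 were called higher in BDL, 13 of them with the letters, and 6 were not called, 3 of them with the letters (Orc3, Gins3 and Pold3). CCAAT, the letters bound by NF-Y, stood in 50% of the windows and in 37.4% of all windows. TTTGAA, a cell cycle element usual in genes of later phases, stood in 14.8% and 17.9%.

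The 250 bases before the start are shown for 5 genes that the results below turn on, with the E2F letters in capitals. Mcm5 had the largest increase of the helicase subunits and Mcm6 the highest level per length in the BDL libraries. Orc1 and Orc3 are subunits of the same complex, of which Orc1 rose and Orc3 did not pass the test. Rrm2 had the largest increase of all 54 and none of the letters in these bases.
Mcm5: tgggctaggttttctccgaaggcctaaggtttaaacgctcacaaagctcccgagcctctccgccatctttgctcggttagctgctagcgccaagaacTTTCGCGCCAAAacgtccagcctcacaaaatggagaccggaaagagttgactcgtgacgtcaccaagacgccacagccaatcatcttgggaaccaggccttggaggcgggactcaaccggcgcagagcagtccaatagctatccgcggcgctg
Mcm6: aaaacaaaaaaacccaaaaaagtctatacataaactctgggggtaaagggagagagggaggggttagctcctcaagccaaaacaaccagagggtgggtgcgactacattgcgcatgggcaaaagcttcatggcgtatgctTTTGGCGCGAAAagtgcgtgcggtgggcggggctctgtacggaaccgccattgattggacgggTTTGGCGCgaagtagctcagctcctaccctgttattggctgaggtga
Orc1: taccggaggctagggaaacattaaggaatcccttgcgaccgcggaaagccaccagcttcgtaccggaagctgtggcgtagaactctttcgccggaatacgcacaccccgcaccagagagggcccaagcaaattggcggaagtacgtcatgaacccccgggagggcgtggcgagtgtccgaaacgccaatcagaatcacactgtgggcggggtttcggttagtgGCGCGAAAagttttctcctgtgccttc
Orc3: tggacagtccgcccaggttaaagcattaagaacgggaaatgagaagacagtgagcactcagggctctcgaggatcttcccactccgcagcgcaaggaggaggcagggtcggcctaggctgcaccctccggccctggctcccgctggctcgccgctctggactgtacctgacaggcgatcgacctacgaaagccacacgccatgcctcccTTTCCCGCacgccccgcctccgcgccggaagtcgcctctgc
Rrm2: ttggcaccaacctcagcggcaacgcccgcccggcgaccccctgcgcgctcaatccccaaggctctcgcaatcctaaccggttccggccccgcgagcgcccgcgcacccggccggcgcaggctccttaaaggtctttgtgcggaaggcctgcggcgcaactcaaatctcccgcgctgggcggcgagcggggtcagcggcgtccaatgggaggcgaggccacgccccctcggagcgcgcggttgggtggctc

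These sequences lie, on GRCm38.p6, at chr8:75109259-75109508, plus strand (Mcm5), chr1:128359706-128359955, minus strand (Mcm6), chr4:108579204-108579453, plus strand (Orc1), chr4:34614943-34615192, minus strand (Orc3) and chr12:24708004-24708253, plus strand (Rrm2), and each is written along its gene's strand. In Mcm5 a match and a match to the other strand overlapped, starting 153 and 149 bases before the start, and Mcm6 held a like pair at 110 and a further match at 47 bases. The match in Orc1 began 27 bases and that in Orc3 41 bases before the start. Of 22 matches in all members' windows, 12 began upstream of the start and 10 at or after it. A match of letters is a description and not evidence of binding, and the counts below were made on GRCm39, whose coordinates differ.

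The comparison of BDL with sham asked which replication transcripts differed 48 hours after obstruction. Of the 54 genes, 47 were higher in BDL, 0 were lower and 7 did not pass the test (edgeR quasi-likelihood F test with a term for sex, Benjamini-Hochberg adjustment over 25209 genes, adjusted p under 0.05). Of all genes tested, 11.8% were called higher and 11.0% lower. At an unadjusted p under 0.05, for which all genes were not counted, the numbers were 50 higher and 0 lower. DESeq2 also called 0 lower. The median log2 fold change was 2.07 (range 0.02 to 5.24) over the 54 genes and -0.0075 over all genes. In 50 genes every BDL library was above every sham library, which held for 18.7% of all genes tested. Fitted changes exceeded 2-fold in 43 genes and 4-fold in 27. The smallest of the 43 (Rfc2) was above the fitted change of 82.5% of all genes tested, and the smallest of the 27 (Dut) above that of 92.3%. A test against a 2-fold change (glmTreat) was passed by 38, which 2.39% of all genes did in this direction. Leaving out BDL replicates 1 and 4, which carried the hepatocyte RNA, gave 45 genes higher, and leaving out replicates 2 and 3, which carried most of the acinar RNA of the BDL group, also gave 45. All 3 sham libraries, with 13% to 49% acinar counts, stayed in both fits. Neither fit therefore removed the acinar difference between the groups, and the part of neighbouring RNA was not tested. The share of all genes called was not counted in these 2 fits.

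**Figure D1:**
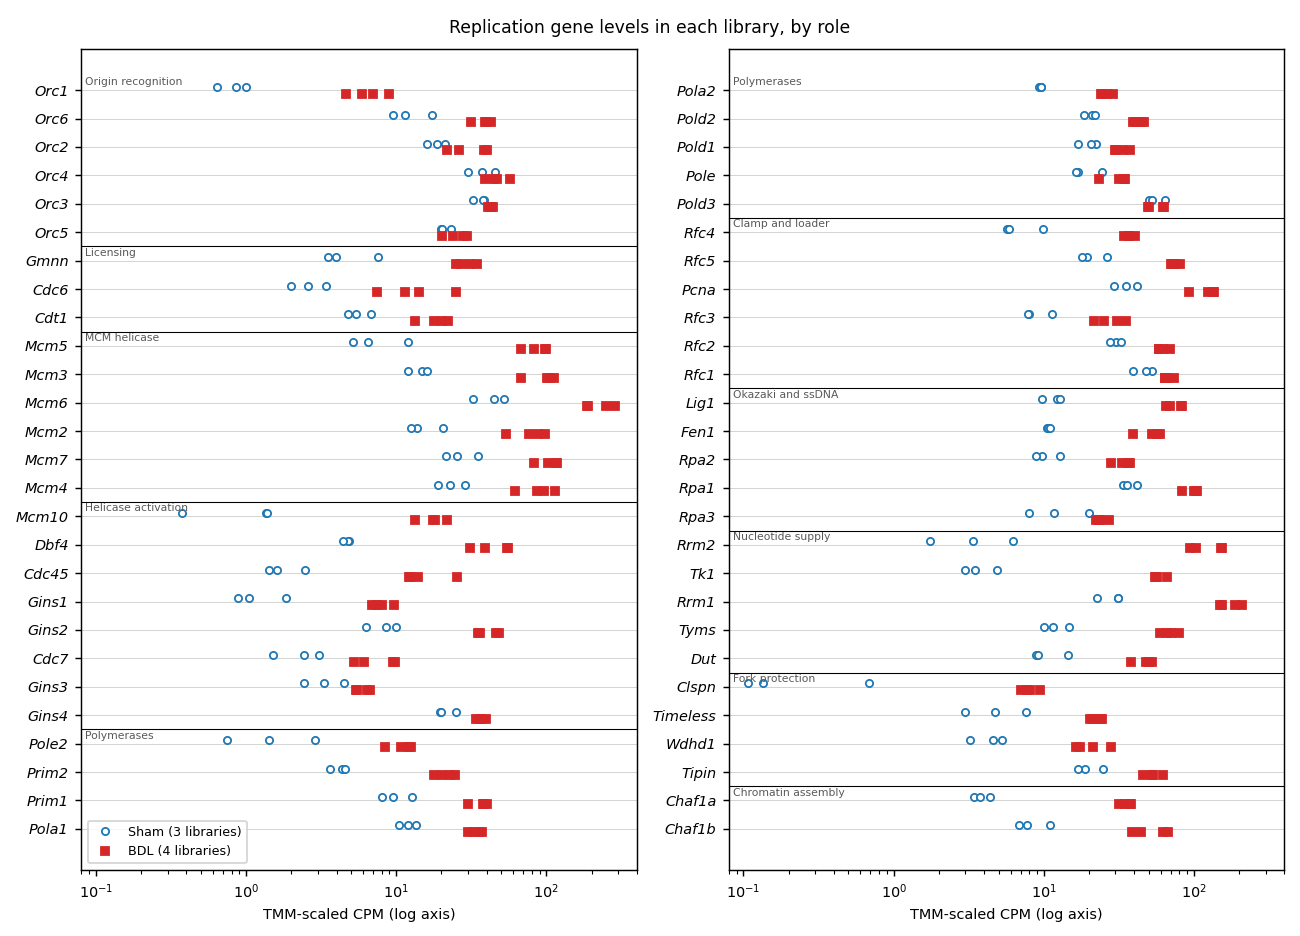
Level of each of the 54 genes in each library, in TMM-scaled CPM on a log axis, with genes grouped by role and ordered by fold change within a role. Open circles are the 3 sham and filled squares the 4 BDL libraries, and the symbols of the groups lie apart in 50 genes and overlap in Orc4, Orc5, Pold3 and Pole.

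Origin recognition had the smallest median change of the 10 roles, 0.57 on the log2 scale, and 3 of its 6 subunits rose. Orc1 (chromosome 4, 108436540 to 108473245, plus strand, GRCm39), the largest subunit, whose level is known to vary over the cell cycle, was measured at 1.001, 0.855 and 0.644 CPM in sham replicates 1, 2 and 3 and 7.05, 8.98, 4.66 and 5.92 CPM in BDL replicates 1 to 4. Every BDL library stood several times above every sham library, and the increase was the largest in the complex (log2 fold change 2.99, SE 0.35, edgeR adjusted p = 0.00178). Orc6, the smallest subunit, read 9.495, 17.2 and 11.4 CPM in the sham libraries and 42.9, 39.4, 31.3 and 39.1 CPM in the BDL libraries, and its groups also lay well apart (log2 fold change 1.67, SE 0.21, edgeR adjusted p = 0.00223). Orc2 read 16, 18.8 and 21.1 CPM in the sham libraries and 38.3, 40.3, 21.9 and 26.1 CPM in the BDL libraries, so that the lowest BDL library was close to the highest sham library (log2 fold change 0.82, SE 0.16, edgeR adjusted p = 0.0111). The call for Orc2 was lost without BDL replicate 1 (edgeR adjusted p = 0.051) and without BDL replicates 1 and 4 (edgeR adjusted p = 0.0546). Orc2 shares 1239 exon bases with Nif3l1 on the opposite strand, which had a log2 fold change of 0.47.

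The remaining subunits of the origin recognition complex did not pass the test. Orc3 read 32.5, 38.7 and 37.7 CPM in the sham libraries and 40.96, 44.4, 43.1 and 42.6 CPM in the BDL libraries, a small difference in which the groups nonetheless did not overlap (log2 fold change 0.26, SE 0.13, edgeR adjusted p = 0.192). Orc4 read 45.7, 37.1 and 29.99 CPM in the sham libraries and 46.6, 56.8, 38.9 and 44.9 CPM in the BDL libraries, with overlap (log2 fold change 0.31, SE 0.20, edgeR adjusted p = 0.295). Orc5 read 19.97, 23.3 and 20.2 CPM in the sham libraries and 20.2, 27.7, 29.5 and 23.7 CPM in the BDL libraries, and its lowest BDL library fell among the sham libraries (log2 fold change 0.25, SE 0.18, edgeR adjusted p = 0.366). The exons of Orc3 overlap 4237 bases of Akirin2 and those of Orc4 3081 bases of Acvr2a on the opposite strand, and this library kit does not mark strand, so their counts may hold reads of those neighbours, which had log2 fold changes of 0.33 and 0.27.

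All 3 licensing factors rose. Cdt1 (chromosome 8, 123294703 to 123300293, plus strand), which brings MCM2-7 to the origin, was measured at 4.74, 6.82 and 5.39 CPM in sham replicates 1, 2 and 3 and 20.1, 22.3, 13.4 and 17.9 CPM in BDL replicates 1 to 4 (log2 fold change 1.77, SE 0.20, edgeR adjusted p = 0.00159). Geminin, the product of Gmnn, binds CDT1 and blocks relicensing. Gmnn rose with its target, from 3.97, 7.52 and 3.52 CPM in the sham to 31.2, 27, 24.8 and 34.7 CPM in the BDL libraries (log2 fold change 2.59, SE 0.32, edgeR adjusted p = 0.0022). Both genes were well apart between groups, and Cdc6, the ATPase that works with CDT1, rose by 2.39 (SE 0.43) on the log2 scale with a wider spread among BDL libraries, from 7.41 to 25.1 CPM.

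The 6 subunits of the MCM2-7 helicase all rose, with log2 fold changes of 1.96 (Mcm4) to 3.59 (Mcm5) and a median of 2.41. Mcm5 (chromosome 8, 75836140 to 75856231, plus strand) had the lowest sham level per length of the 6 and read 5.18, 11.98 and 6.52 CPM in sham replicates 1, 2 and 3 and 98.8, 98.4, 67.95 and 83.1 CPM in BDL replicates 1 to 4. Each BDL library held more than 5 times the Mcm5 level of the highest sham library (log2 fold change 3.59, SE 0.27, edgeR adjusted p = 0.000479). Mcm3 read 14.8, 16.1 and 11.9 CPM in the sham libraries and 105, 113, 67.9 and 101 CPM in the BDL libraries (log2 fold change 2.78, SE 0.22, edgeR adjusted p = 0.00059). Mcm2, Mcm6, Mcm4 and Mcm7 rose by 2.39 (SE 0.23), 2.43 (SE 0.24), 1.96 (SE 0.24) and 1.98 (SE 0.21) on the log2 scale. Mcm6 lay at 32.3 to 51.9 CPM in sham and 187 to 288 CPM in BDL and Mcm2 at 12.5 to 20.5 CPM in sham and 54.1 to 97.4 CPM in BDL. In none of the 6 did a BDL library reach down to the sham range. The summed level of the 6 was 126.5, 164.2 and 103.7 CPM in the sham libraries and 744, 828, 522.2 and 645.1 CPM in the BDL libraries, without overlap between the groups.

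Of the 8 genes that turn the loaded helicase into a moving one, 7 rose. Dbf4 (chromosome 5, 8445717 to 8472796, minus strand), the activating partner of the kinase CDC7, was measured at 4.87, 4.77 and 4.43 CPM in sham replicates 1, 2 and 3 and 54.7, 55.9, 31.2 and 39.1 CPM in BDL replicates 1 to 4. The sham values were nearly equal and every BDL library was far above them (log2 fold change 3.29, SE 0.22, edgeR adjusted p = 0.000333). Cdc7 itself rose by 1.58 (SE 0.27) and lay at 1.51 to 3.04 CPM in sham and 5.27 to 9.75 CPM in BDL. Mcm10, a factor needed for helicase activation that shares a name but not the ring with MCM2-7, read 1.35, 1.37 and 0.376 CPM in the sham libraries and 18.01, 17.6, 13.3 and 21.8 CPM in the BDL libraries. Its sham values rested on 70, 88 and 14 raw counts, against 809 to 1241 in BDL, and its log2 fold change was the third largest of the 54 (log2 fold change 4.07, SE 0.49, edgeR adjusted p = 0.00197).

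The GINS complex, which joins CDC45 on the helicase, was uneven. Gins2 read 8.49, 9.99 and 6.33 CPM in the sham libraries and 46.1, 48.1, 35.8 and 35.1 CPM in the BDL libraries (log2 fold change 2.34, SE 0.21, edgeR adjusted p = 0.000794), and Gins1 rose by 2.69 (SE 0.36), at 0.885 to 1.83 CPM in sham and 6.91 to 9.61 CPM in BDL. Cdc45 rose by 3.01 (SE 0.38), at 1.42 to 2.49 CPM in sham and 12.2 to 25.2 CPM in BDL, with BDL replicate 4 above the rest. Gins4 read 19.6, 25.2 and 19.9 CPM in the sham libraries and 36.01, 36.4, 34.2 and 39.8 CPM in the BDL libraries, without overlap (log2 fold change 0.78, SE 0.16, edgeR adjusted p = 0.0127), and its call was lost without sham replicate 1 (edgeR adjusted p = 0.0611). Gins3 was low in all libraries, at 4.47, 2.44 and 3.3 CPM in the sham libraries and 5.41, 6.65, 5.45 and 6.34 CPM in the BDL libraries, and it missed the threshold although the groups did not overlap (log2 fold change 0.80, SE 0.28, edgeR adjusted p = 0.0786). In DESeq2 it passed (DESeq2 adjusted p = 0.0278). Gins2 overlaps 2758 exon bases of Gse1 on the opposite strand, whose log2 fold change was -0.16.

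**Figure D2:**
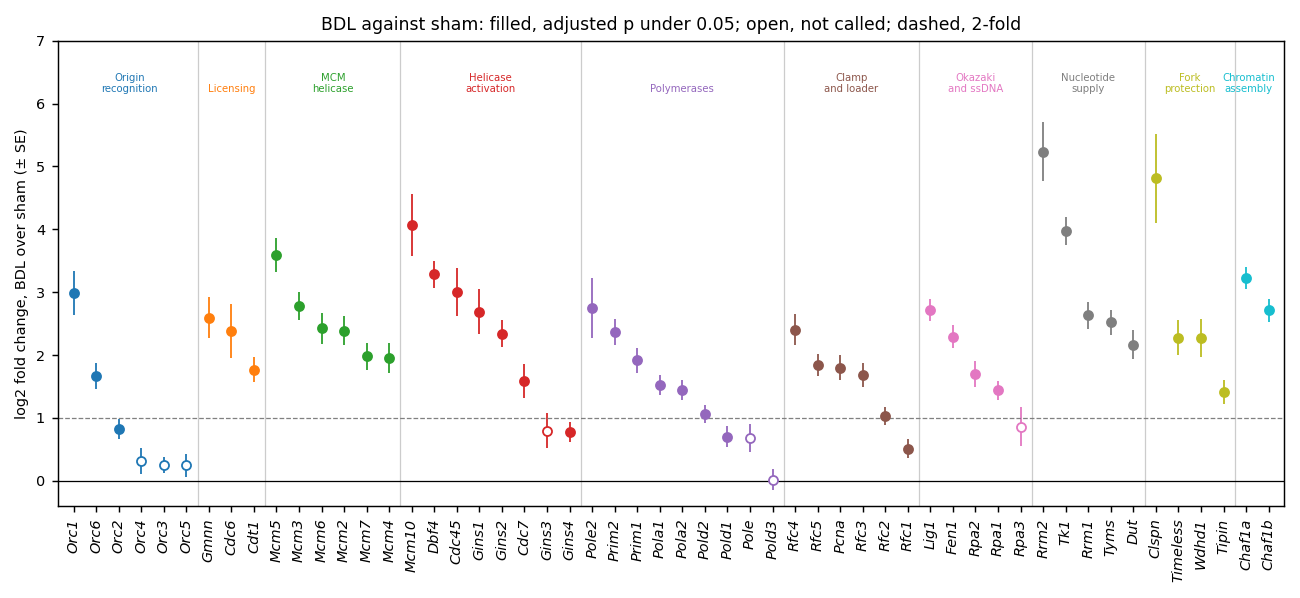
Fitted log2 fold change of BDL over sham for each gene, with its SE, by role. Filled points passed the test (47 genes) and open points did not (7 genes), and the dashed line marks a 2-fold change, with Rrm2 highest at 5.24 and Pold3 lowest at 0.02.

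Among the polymerases the primase and polymerase alpha, which start each new strand, rose together, and the polymerases that extend it were mixed. Prim2 (chromosome 1, 33492888 to 33709466, minus strand), the large subunit of primase, was measured at 4.37, 4.52 and 3.595 CPM in sham replicates 1, 2 and 3 and 24.5, 22.8, 17.8 and 20.1 CPM in BDL replicates 1 to 4 (log2 fold change 2.37, SE 0.20, edgeR adjusted p = 0.000676). Pola1, the catalytic subunit of polymerase alpha on the X chromosome, read 10.4, 11.9 and 13.6 CPM in the sham libraries and 32.2, 37.1, 29.9 and 35.3 CPM in the BDL libraries (log2 fold change 1.52, SE 0.16, edgeR adjusted p = 0.00121). All 4 subunits of this enzyme rose, with log2 fold changes of 1.92 (SE 0.20) for Prim1, the catalytic primase subunit, and 1.44 (SE 0.16) for Pola2. Prim1 lay at 8.01 to 12.7 CPM in sham and 29.98 to 40.5 CPM in BDL and Pola2 at 9.25 to 9.61 CPM in sham and 23.95 to 28.8 CPM in BDL.

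Of the 3 genes among the 54 for subunits of polymerase delta, which copies the lagging strand, 2 rose. Pold4, a further subunit gene that is not among the 54, did not pass and its groups overlapped (log2 fold change 0.49, SE 0.29, edgeR adjusted p = 0.26). The catalytic subunit Pold1 read 22.2, 20.6 and 16.8 CPM in the sham libraries and 33.8, 30.2, 37.5 and 29.8 CPM in the BDL libraries, with every BDL library above sham but by a small margin (log2 fold change 0.70, SE 0.16, edgeR adjusted p = 0.0203). This call was lost in 4 of the 7 fits that leave out 1 library (without sham replicate 1 or 3 or BDL replicate 1 or 2, edgeR adjusted p = 0.0544 to 0.0802) and without BDL replicates 2 and 3 (0.0909). Pold2 rose by 1.07 (SE 0.14) and lay at 18.7 to 22.1 CPM in sham and 39.5 to 46.5 CPM in BDL. Pold3 (chromosome 7, 99731317 to 99770888, minus strand) was the gene with the smallest change of the 54 and read 64.4, 50.3 and 52.2 CPM in the sham libraries and 62.5, 62.7, 49.9 and 49.3 CPM in the BDL libraries. The groups covered nearly the same range (log2 fold change 0.02, SE 0.17, edgeR adjusted p = 0.957), and the sign of the fitted value turned under RLE (-0.016) and upper quartile (-0.11) scaling.

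Polymerase epsilon copies the leading strand. Its catalytic subunit Pole read 24.5, 16.9 and 16.4 CPM in the sham libraries and 34.2, 34.9, 31.5 and 23.4 CPM in the BDL libraries, with sham replicate 1 above BDL replicate 4, and did not pass (log2 fold change 0.68, SE 0.22, edgeR adjusted p = 0.0653). It did pass when either of these libraries was left out (edgeR adjusted p = 0.0238 and 0.0196) and in DESeq2 (DESeq2 adjusted p = 0.0304). Pole2, its second subunit, had a log2 fold change of 2.75 (SE 0.48) and lay at 0.751 to 2.86 CPM in sham and 8.48 to 12.6 CPM in BDL. It shares 245 exon bases with Gm49384 on the same strand, which had a log2 fold change of 0.72.

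The sliding clamp PCNA and the 5 subunits of replication factor C (RFC), which opens the clamp and places it on DNA, all rose. Rfc5 (chromosome 5, 117515030 to 117527162, minus strand) was measured at 19.3, 26.4 and 17.8 CPM in sham replicates 1, 2 and 3 and 74.2, 80.8, 70.4 and 71.7 CPM in BDL replicates 1 to 4 (log2 fold change 1.84, SE 0.17, edgeR adjusted p = 0.000885), and Rfc4 at 5.72, 9.88 and 5.85 CPM in the sham libraries and 36.8, 34.3, 36.9 and 40.5 CPM in the BDL libraries (log2 fold change 2.40, SE 0.25, edgeR adjusted p = 0.00118). Both were clearly separated, but Rfc5 shares 2905 exon bases with Wsb2 on the opposite strand, which also rose (log2 fold change 0.85, edgeR adjusted p = 0.022), and Rfc4 shares 368 with Eif4a2, which fell by 1.68 (edgeR adjusted p = 0.0007). Pcna rose by 1.80 (SE 0.20) and lay at 29.2 to 41.5 CPM in sham and 92.3 to 136 CPM in BDL. Rfc3 and Rfc2 rose by 1.69 (SE 0.19) and 1.03 (SE 0.14), and lay at 7.89 to 11.3 CPM in sham and 21.5 to 35.1 CPM in BDL (Rfc3) and 27.6 to 32.8 CPM in sham and 58.3 to 68.8 CPM in BDL (Rfc2). The large subunit Rfc1, which is not part of the alternative clamp loaders that share the small subunits, read 52.9, 48.1 and 39.2 CPM in the sham libraries and 64.6, 73.1, 65.6 and 63.8 CPM in the BDL libraries. Its groups did not overlap, but the difference was the smallest of the called genes (log2 fold change 0.51, SE 0.15, edgeR adjusted p = 0.0489) and the call was lost in 6 of the 7 fits without 1 library (edgeR adjusted p = 0.0551 to 0.156, all but BDL replicate 4) and without either pair of BDL libraries (0.0987 and 0.186).

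Of the 5 genes that process Okazaki fragments or cover single-stranded DNA, 4 rose. Lig1 (chromosome 7, 13011239 to 13045350, plus strand), the ligase that seals the fragments of the lagging strand, was measured at 12.2, 12.8 and 9.74 CPM in sham replicates 1, 2 and 3 and 82.8, 82.6, 69.6 and 65.6 CPM in BDL replicates 1 to 4 (log2 fold change 2.71, SE 0.17, edgeR adjusted p = 0.00031). Fen1, the nuclease that trims their flaps, had almost equal sham values and read 10.4, 10.7 and 11.1 CPM in the sham libraries and 52.6, 56.3, 39.4 and 59.1 CPM in the BDL libraries (log2 fold change 2.29, SE 0.18, edgeR adjusted p = 0.000582). Both lay far outside the sham range in all BDL libraries. Of the trimer RPA, which coats single-stranded DNA, Rpa1 rose by 1.44 (SE 0.15), at 33.6 to 41.8 CPM in sham and 82.9 to 105 CPM in BDL, and Rpa2 by 1.70 (SE 0.20), at 8.83 to 12.9 CPM in sham and 27.8 to 37.8 CPM in BDL. Rpa3, the small subunit, read 11.8, 20.02 and 8.02 CPM in the sham libraries and 22.3, 23.4, 23.6 and 27.1 CPM in the BDL libraries, with sham replicate 2 close to the BDL libraries, and did not pass (log2 fold change 0.86, SE 0.32, edgeR adjusted p = 0.0911). It passed without that library (edgeR adjusted p = 0.012), without a filter on low counts (edgeR adjusted p = 0.0269) and in DESeq2 (DESeq2 adjusted p = 0.0252).

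All 5 genes of deoxynucleotide supply rose, by a median of 2.63 on the log2 scale. Rrm2 (chromosome 12, 24757811 to 24764145, plus strand), the S phase small subunit of ribonucleotide reductase, was measured at 1.75, 6.28 and 3.38 CPM in sham replicates 1, 2 and 3 and 103, 153, 93.4 and 150 CPM in BDL replicates 1 to 4, or 3.804 ± 2.29 CPM (mean ± SD, n = 3) after sham surgery and 125 ± 31.1 CPM (n = 4) after ligation. No other gene of the 54 had a larger log2 fold change (log2 fold change 5.24, SE 0.47, edgeR adjusted p = 0.000764). The large subunit Rrm1 rose by 2.63 (SE 0.21) and lay at 22.6 to 31.3 CPM in sham and 148 to 209 CPM in BDL. On the strand opposite Rrm2, GENCODE annotates an overlapping noncoding gene, Gm59512, whose reads cannot be told apart from those of Rrm2 in the shared bases. Tk1, the cytosolic thymidine kinase of the salvage pathway, read 3.47, 4.91 and 2.98 CPM in the sham libraries and 65.9, 56.4, 56.02 and 55.3 CPM in the BDL libraries. The BDL libraries were close to each other and far above sham (log2 fold change 3.97, SE 0.22, edgeR adjusted p = 0.000302). Tk1 shares 121 exon bases with Afmid on the opposite strand, which also rose (log2 fold change 1.16, edgeR adjusted p = 0.017). It shares 630 with Syngr2, also opposite, whose means were 158 CPM in sham and 162 CPM in BDL. Tyms, thymidylate synthase of the de novo pathway, read 11.4, 14.7 and 10.01 CPM in the sham libraries and 66.2, 70.5, 59.6 and 79.4 CPM in the BDL libraries (log2 fold change 2.52, SE 0.20, edgeR adjusted p = 0.000582), and Dut, the dUTPase that keeps uracil out of DNA, rose by 2.17 (SE 0.23). Dut lay at 8.86 to 14.5 CPM in sham and 38.2 to 52.3 CPM in BDL.

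The other small subunit of ribonucleotide reductase went the opposite way. Rrm2b, a p53 target that serves cells outside S phase, is not among the 54 and was read from a second list of replication genes. Its levels were 18.6, 21.3 and 15.7 CPM in sham replicates 1, 2 and 3 and 6.58, 8.95, 7.11 and 6.99 CPM in BDL replicates 1 to 4, so that each BDL library was below each sham library (log2 fold change -1.31, SE 0.20, edgeR adjusted p = 0.00493).

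**Figure D3:**
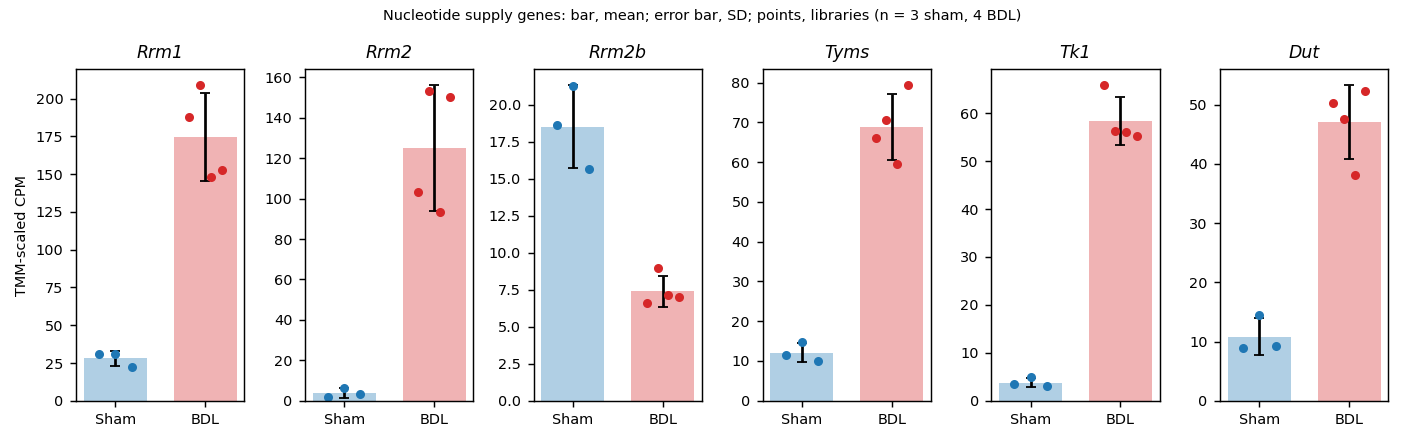
Levels of the nucleotide supply genes and of Rrm2b in TMM-scaled CPM, with a separate linear axis from 0 for each gene. Bars are means and error bars SDs of 3 sham and 4 BDL libraries, points are libraries, and Rrm2b is the gene whose BDL libraries (6.58 to 8.95 CPM) lie below sham (15.7 to 21.3 CPM).

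All 4 genes that steady the fork rose. Clspn (chromosome 4, 126450728 to 126489576, plus strand), or claspin, the adaptor that lets the checkpoint kinase ATR activate CHK1, was very low in the sham ducts and read 0.135, 0.684 and 0.107 CPM in sham replicates 1, 2 and 3 and 7.68, 8.03, 7.09 and 9.4 CPM in BDL replicates 1 to 4. Raw counts were 7, 44 and 4 in sham against 431 to 535 in BDL, and the log2 fold change was the second largest of the 54 (log2 fold change 4.81, SE 0.71, edgeR adjusted p = 0.00421). The log2 fold change was 6.00 without sham replicate 2, which held most of the sham counts. Timeless, which forms the fork protection complex with TIPIN, read 3.004, 7.58 and 4.72 CPM in the sham libraries and 24.3, 23.8, 20.2 and 21.2 CPM in the BDL libraries (log2 fold change 2.28, SE 0.27, edgeR adjusted p = 0.00189). Wdhd1, which tethers polymerase alpha to the helicase, read 3.24, 5.24 and 4.59 CPM in the sham libraries and 16.4, 21.2, 17.4 and 27.99 CPM in the BDL libraries (log2 fold change 2.27, SE 0.30, edgeR adjusted p = 0.0027), and Tipin rose by 1.41 (SE 0.19), at 16.9 to 24.8 CPM in sham and 46.1 to 62.3 CPM in BDL.

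Both subunits of chromatin assembly factor 1, which puts histones back on the new DNA, rose. Chaf1a (chromosome 17, 56347303 to 56379289, plus strand), its large subunit, was measured at 3.45, 4.38 and 3.78 CPM in sham replicates 1, 2 and 3 and 34.9, 38.04, 31.8 and 37.6 CPM in BDL replicates 1 to 4. This was the smallest p of the 54 genes, with little spread within either group (log2 fold change 3.23, SE 0.17, edgeR adjusted p = 0.000295). Chaf1b read 6.86, 10.96 and 7.7 CPM in the sham libraries and 66.99, 61.96, 44.04 and 38.9 CPM in the BDL libraries, and BDL replicates 1 and 2 were above 3 and 4 (log2 fold change 2.71, SE 0.18, edgeR adjusted p = 0.000333). Chaf1a shares 4648 exon bases with Ubxn6 on the opposite strand, whose log2 fold change was -0.15.

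Subunits of one complex were then compared per length, as CPM per kilobase of mean annotated transcript. In the origin recognition complex the highest subunit stood 32.5 to 58.6 times above the lowest in the sham libraries and 8.31 to 12.7 times in the BDL libraries. Orc1 was the lowest subunit in all 7 libraries, at 0.24 to 0.373 CPM per kilobase in sham and 1.73 to 3.34 in BDL. The highest was Orc3 in sham and Orc6 in BDL. For MCM2-7 this ratio was 6.93 to 12.5 in sham and 3.26 to 4.25 in BDL, and for GINS it was 9.81 to 13.5 and 5.20 to 6.33. Thus the ranges of the groups did not overlap in these 3 complexes. On this length no such separation was seen for RFC (1.68 to 3.19 in sham, 1.53 to 1.84 in BDL), polymerase alpha-primase (2.68 to 3.62 and 3.39 to 4.03) or RPA (1.88 to 3.70 and 1.64 to 2.53). The scarcest sham subunit (Orc1, Mcm5 and, in 2 of 3 sham libraries, Gins1) had the largest fold change of its complex. The same held for Rfc4, the scarcest RFC subunit in each sham library. In polymerase alpha-primase and RPA, Pola1 and Rpa1 were lowest in sham replicates 1 and 2, but Prim2 and Rpa2 rose most. Sham levels enter both the ratio and the fold change, so these are not separate results. Divided by coding length instead, the ratios of the origin recognition complex were 79.5 to 85.2 in sham and 14.1 to 21.5 in BDL, and its highest sham subunit was Orc4 in place of Orc3. Those of MCM2-7 (4.001 to 7.98 and 2.70 to 3.82) and GINS (11.96 to 19.6 and 6.03 to 8.54) also stayed apart. In MCM2-7 the highest subunit of sham replicates 2 and 3 was Mcm7 per annotated transcript and Mcm6 by coding length. The mean annotated transcript of Mcm7 (1928 bases) is shorter than its coding length (2157 bases). The lowest BDL subunit was Mcm5, or Mcm3 in BDL replicate 3, per annotated transcript and Mcm2 by coding length. The result for RPA depended on the length used, since by coding length its ratios were 2.03 to 3.47 in sham and 1.37 to 1.89 in BDL, without overlap. Those of RFC (3.52 to 5.56 and 3.66 to 3.89) and polymerase alpha-primase (2.70 to 3.76 and 3.53 to 4.19) overlapped on this length too. By coding length Rpa2, which rose most in RPA, was the lowest RPA subunit in each sham library.

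**Figure D4:**
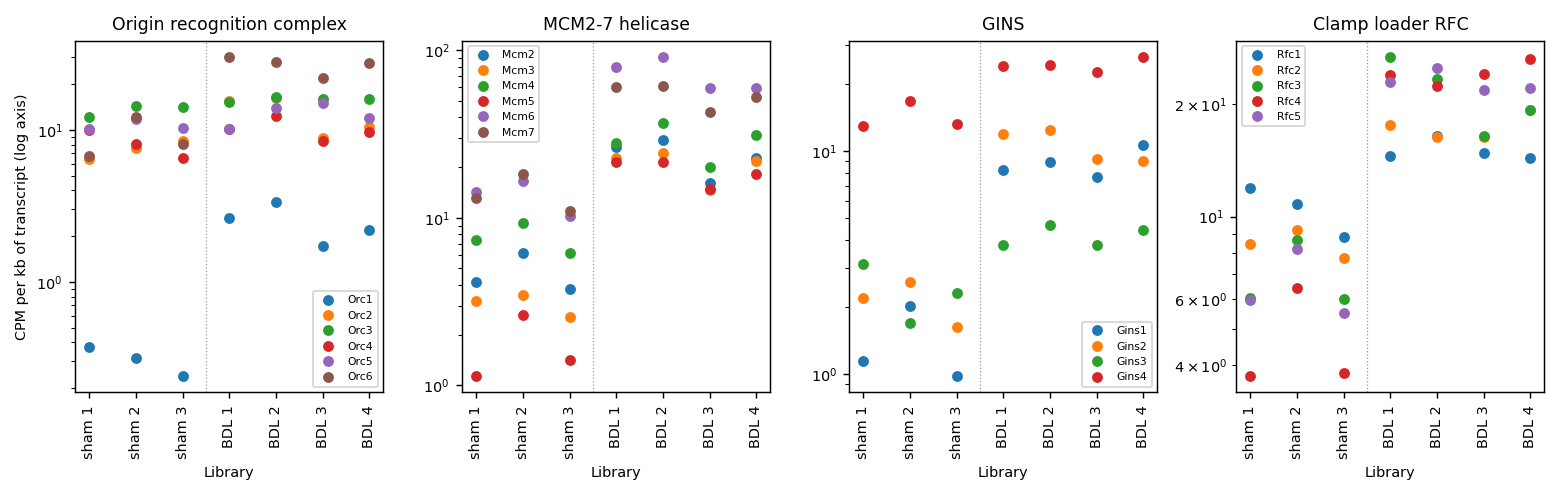
Level of each subunit of 4 complexes in each library, in CPM per kilobase of mean annotated transcript on log axes, with sham left and BDL right of the dotted line. Orc1 is the lowest subunit of its complex in all 7 libraries, and the MCM2-7 subunits lie within a ratio of 3.26 to 4.25 in BDL against 6.93 to 12.5 in sham.

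The BDL libraries were not equal to each other. BDL replicate 3 was the lowest of the 4 in 35 of the 54 genes and the highest in 2, and its genes lay at a median of -0.22 from the mean of the BDL libraries on the log2 scale. The medians of BDL replicates 1, 2 and 4 were 0.05, 0.11 and 0.04. In the sham group, replicate 2 was highest in 39 genes and replicate 3 lowest in 32. The same counts were not made over all genes tested, so these differences are not shown to be particular to the replication genes. Summed over the 54 genes, levels were 794.2, 911.3 and 702.3 CPM in sham and 2879, 3057, 2324 and 2729 CPM in BDL, so each BDL library was above each sham library. Acinar RNA was highest in sham replicate 3 and, within the BDL group, in BDL replicate 3 (49% and 15.8% of counts), while BDL replicate 2, the highest in 22 genes, held 10.3%. The part of acinar RNA in these differences was not tested.

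**Figure D5:**
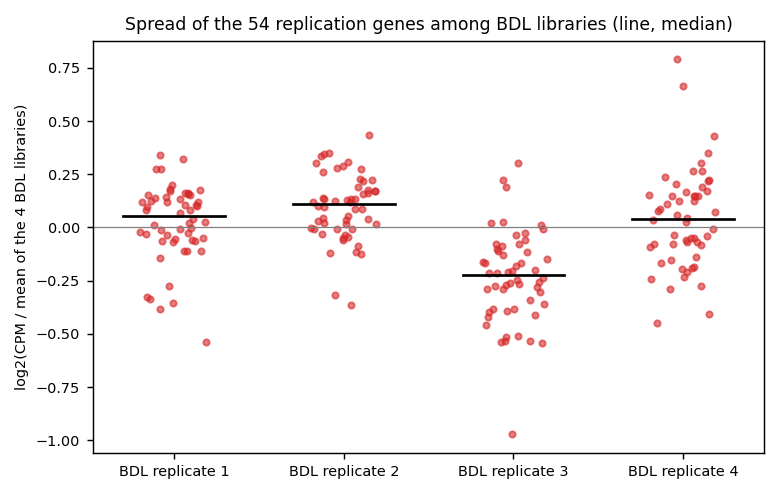
Deviation of each of the 54 genes in each BDL library from the mean of the 4 BDL libraries, as log2 of the CPM ratio. Each point is a gene and each line the median of a library, which is lowest in BDL replicate 3 (-0.22) and between 0.04 and 0.11 in the others.

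Sex was a term of the fit. For sex itself 0 of the 54 genes passed in edgeR, where 0.0198% of all genes did, and 4 had an unadjusted p under 0.05 (Orc2, Chaf1b, Cdc7 and Mcm5, each with an edgeR adjusted p of 0.946). DESeq2 also called 0, with 4 at an unadjusted p under 0.05. For a difference of the BDL change between the sexes, edgeR called 0 of the 54 and 0 of all genes, with 4 of the 54 at an unadjusted p under 0.05 (Pold3, Pole, Dbf4 and Orc4), and DESeq2 called 0 with 5. The share of all genes at an unadjusted p under 0.05 was not counted for either term, so no result is drawn from these genes. The sham group held 1 female library, so the female sham level rests on that library alone.

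A second list of 47 genes with other roles in replication was read in the same fit. Of these, 34 rose, 1 fell and 12 did not pass, where 11.8% of all genes tested were called higher and 11.0% lower. The median log2 fold change of the 47 was 1.19. The smallest p was that of Chtf18, a subunit of an alternative clamp loader, which read 0.674, 0.964 and 1.26 CPM in sham replicates 1, 2 and 3 and 16.6, 15.9, 17.2 and 14.2 CPM in BDL replicates 1 to 4 (log2 fold change 4.12, SE 0.27, edgeR adjusted p = 0.000333). Topbp1, a scaffold in helicase activation and ATR signalling, read 19.03, 25.1 and 25.6 CPM in the sham libraries and 81.2, 94.5, 63.5 and 64.8 CPM in the BDL libraries (log2 fold change 1.78, SE 0.13, edgeR adjusted p = 0.000446). Uhrf1, which brings the maintenance methyltransferase DNMT1 to new DNA, read 3.99, 5.94 and 2.39 CPM in the sham libraries and 89.8, 96.7, 63.5 and 79.7 CPM in the BDL libraries (log2 fold change 4.35, SE 0.35, edgeR adjusted p = 0.00059). None of the 3 overlapped between groups. In 36 of the 47 every BDL library was above every sham library, which held for 18.7% of all genes tested, and in 3 every BDL library was below, which held for 18.0%. The 3 were Rrm2b, the translesion polymerase gene Polk (log2 fold change -0.60, edgeR adjusted p = 0.101) and the repriming enzyme gene Primpol (-0.68, edgeR adjusted p = 0.0627). Polk and Primpol, and Pold4, Pole3 and Pole4 above, were named after their values were seen.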

How the data were processed

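Whole EHBD RNA of 7 mouse libraries was converted to cDNA with the SMART-Seq mRNA kit, an unstranded method for polyadenylated RNA. Per the paper's methods, the authors ran Salmon against a GENCODE transcriptome of GRCm39 and added transcripts up by gene. Their deposited table holds estimated counts in whole numbers, without normalization. Reads that fit near-identical sequences are shared out by Salmon, which can touch Pcna and Tyms, for which pseudogenes are annotated. Names and GRCm39 coordinates came from GENCODE mouse release 39, which matched 55563 of 56065 identifiers, and the 502 left held 0.0335% of counts.

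The 54 genes, the role groups, the second list of replication genes (47 of 48 names matched) and the tests were chosen with earlier results of these data known. Groups came from the labels. The whole table, less genes whose counts summed to under 10, was fitted with edgeR 4.0.16 (R 4.3.3) by TMM scaling and a quasi-likelihood F test with sex and surgery as terms. An SE is the absolute log2 change divided by the root of F. Named in full were, in each role, the 2 genes with the smallest p and each gene not called, over all roles the 3 largest and 3 smallest changes, and each gene whose call was lost when libraries were left out. Of the second list, the 3 with the smallest p and any called lower were named. The code was tested on simulated data. Alternatives were RLE, upper quartile and library total scaling, TMM without acinar and hepatocyte markers, no filter, filterByExpr, DESeq2 1.42.0, limma-voom (limma 3.58.1), a test against 2-fold, no sex term, and libraries left out. Coding length from GENCODE replaced a planned protein length and was chosen after seeing the data. Counts carry no molecular identifiers.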

Additional observations from a re-analysis of the deposited data

Results flagged for a closer look

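Among the 4 BDL libraries, 2 of the 54 genes had 1 library far from the others by Dixon's criterion, which chance alone meets in about 1 in 20 groups, and groups of 3 were not tested. Cdc45, which joins GINS on the helicase, was at 25.2 CPM in BDL replicate 4 and at 12.2 to 13.9 CPM in the other BDL libraries (ratio of gap to range 0.875). Tk1 was at 65.9 CPM in BDL replicate 1 and at 55.3 to 56.3 CPM in the others (ratio 0.903). Both genes were called higher in BDL in each fit that left out 1 library.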

How the results depend on the processing

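Of the 47 genes called higher in BDL, 41 were called in each alternative other than the test against 2-fold, which called 38. The count was 44 to 48 without 1 library and 41 to 50 in the remaining alternatives. Library total scaling was lowest and DESeq2 highest, and 0 genes were lower in any. Of all genes, 1252 were called higher under library total scaling and 3858 in DESeq2, against 2976 in the main fit. Counts over all genes were not made for fits that left out libraries. Library total scaling ended the calls of Orc2, Gins4, Pold1, Pold2, Rfc1 and Rfc2 (edgeR adjusted p = 0.0993, 0.14, 0.175, 0.0579, 0.297 and 0.0639) and moved the median of all genes by 0.17 on the log2 scale, against -0.121 under upper quartile and -0.0302 under RLE scaling. Rfc1 also missed the threshold under RLE (0.0534), upper quartile (0.0879) and no filter (0.0676), and Orc2 without a sex term (0.0515). Median changes of the 54 genes under these scalings were 2.20, 1.95 and 2.05. Pold3 changed sign under RLE (-0.016), upper quartile (-0.11), filterByExpr (-0.0072), DESeq2 (-0.016) and without BDL replicates 2 and 3 (-0.00068), and ranged from -0.094 to 0.29 without 1 library, never near the threshold, and the cause was not tested. Of the 34 genes named in full, over 19 settings, 600 values kept their direction and call, 28 lost and 9 gained a call. A further 9 values, all of Pold3, changed sign. The 28 include calls lost in the test against 2-fold. Of the second list, 16 genes passed against 2-fold, 23 were higher under library total scaling and 27 to 34 without 1 library, and 1 was lower without any 1 library, 2 under upper quartile scaling, filterByExpr and limma-voom, 3 in DESeq2 and 0 under library total scaling and against 2-fold, where the cause was not tested. Protein length could not be used and was replaced by coding length. No paired analysis was possible because the labels give no shared replicate numbers. Raw counts were lowest for Clspn and Mcm10 in sham, at 4 and 14 in sham replicate 3, which had the largest total and the most acinar RNA.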
